A study of Mus musculus with 6 samples.

Results

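Lipoprotein lipolysis and fatty acid uptake were followed in heart ventricle through 10 genes given as a list by symbol: *Lpl*, *Angptl4*, *Gpihbp1*, *Lmf1*, *Vldlr*, *Cd36*, *Slc27a1*, *Fabp3*, *Fabp4* and *Fabp5*. They were found through their GENCODE M21 symbols among 54232 Ensembl genes in the count tables, of which 25581 had a read in at least 1 library. All 10 had reads in every library and passed the filter on low counts that left 14133 genes for the test. Messenger RNA came from 6 obese mice, 3 given vehicle and 3 given Tributyrin, an ester of butyrate with glycerol. All 6 mice were wild-type C57BL/6J and had been fed WD (western diet) for 15 weeks before treatment. WD + Tributyrin mice then received 5 g/kg body weight for 3 weeks, and WD + Vehicle mice received the vehicle, which the labels name PBS. Chow-fed mice were not analysed here, so all comparisons are between 2 groups on WD.

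The heart takes most of its fuel from fatty acids, and much of that supply reaches it as triglyceride in circulating lipoproteins. Lipoprotein lipase is made mainly by cardiomyocytes, matured in the endoplasmic reticulum with the help of LMF1, and carried by GPIHBP1 across the capillary endothelium to the lumen, where it releases fatty acids and is inhibited by ANGPTL4. The fatty acids then enter through CD36 and fatty acid transport proteins such as SLC27A1, and are bound inside the cell by fatty acid binding proteins. Several of these genes are known targets of the PPAR (peroxisome proliferator-activated receptor) family of lipid-sensing transcription factors.

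Library totals ranged from 20369746 to 32734485 counts on genes. Mitochondrial transcripts took 23.6% to 26.5% of the counts with vehicle and 25.9% to 28.8% with Tributyrin. The ventricular myosin light chain gene *Myl2* averaged 157628 normalized counts with vehicle and 165294 with Tributyrin, and the cardiomyocyte gene *Myh6* averaged 520737 and 493405. A list of 5 atrial markers was also present, and its summed normalized counts ranged from 1414 to 4786 with vehicle and from 815 to 1687 with Tributyrin, with 4 of 5 genes lower at an unadjusted p under 0.05. In these 4 genes the difference rested on vehicle mice 1 and 2. Vehicle mouse 3 lay below all Tributyrin mice in each, with 6.21 normalized counts of *Sln* and 246 of *Myl4*. In bulk tissue, fewer cells of a type and less RNA per cell cannot be told apart. Tributyrin mouse 3 stood apart in its relation of counts to transcript length, as described beside the genes it touches.

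Promoter sequences of RefSeq (GRCm38.p6, 250 bases before to 50 after an annotated start) were given for 5 of the 10 genes, in 8 windows. They are shown for *Cd36*, which is widely described as a PPAR target, and for *Slc27a1*, which was among the 3 genes with an unadjusted p under 0.05. Capitals mark the nuclear receptor half-site AGGTCA (or TGACCT on the other strand) and the GC box GGGCGG (or CCGCCC), to which Sp-family factors bind. Each line runs 5′ to 3′ on the strand of the gene.
Cd36, chr5:17835847-17836146, minus strand: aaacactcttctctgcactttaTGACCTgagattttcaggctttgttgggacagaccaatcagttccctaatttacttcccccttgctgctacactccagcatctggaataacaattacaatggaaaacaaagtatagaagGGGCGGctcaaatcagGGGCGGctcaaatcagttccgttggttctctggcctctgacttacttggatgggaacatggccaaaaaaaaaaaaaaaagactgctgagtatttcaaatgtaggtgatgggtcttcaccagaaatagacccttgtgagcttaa
Slc27a1, window 3 of 3, chr8:71570344-71570643, plus strand: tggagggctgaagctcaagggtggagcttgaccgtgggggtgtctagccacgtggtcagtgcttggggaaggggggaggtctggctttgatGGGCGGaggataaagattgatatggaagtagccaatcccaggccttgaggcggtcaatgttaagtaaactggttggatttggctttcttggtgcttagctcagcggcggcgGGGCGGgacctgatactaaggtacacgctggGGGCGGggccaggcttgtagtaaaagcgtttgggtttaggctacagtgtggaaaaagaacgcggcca
The *Cd36* window lies inside the annotated gene, downstream of the start of its longest transcripts, and holds 1 half-site 228 bases before the start and GC boxes 109 and 93 bases before it. The *Slc27a1* window holds GC boxes 159, 48 and 17 bases before its start, and no half-site. It is shown because it holds the most GC boxes of the 3 *Slc27a1* windows, of which the other two hold 0 and 1, also with no half-site. Among all 32851 windows of the same length, 16.3% hold a half-site and 35.7% a GC box on either strand. The letters of a direct repeat with 1 base between half-sites (AGGTCANAGGTCA), the arrangement that PPAR:RXR dimers bind, occurred in 13 of all windows (0.0396%) and in none of the 8 windows of these genes. These matches describe the letters in the windows and were not tested for binding.

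The first question was which of the 10 genes were abundant in this tissue. Scaled per length with the exons of each gene merged, *Fabp3*, the heart-type fatty acid binding protein, was the most abundant at 3637 ± 114 TPM (counts per length, scaled to the same sum in each library, mean ± SD over all 6 mice). *Cd36* followed at 1301 ± 90.0 TPM and *Lpl* at 1049 ± 90.3 TPM. The ranges of *Cd36* and *Lpl* overlapped, but *Cd36* was above *Lpl* in 6 of 6 mice on this scale. *Fabp4* reached 172 ± 14.1 TPM, *Vldlr* 98.1 ± 14.5 TPM and *Slc27a1* 86.1 ± 7.71 TPM. Neighbours *Vldlr* and *Slc27a1* did not keep their order, since *Vldlr* was the higher in 4 of 6 mice. *Gpihbp1*, made by capillary endothelium, stood at 53.2 ± 9.97 TPM. Far below it came *Fabp5* at 8.53 ± 0.98 TPM, *Angptl4* at 6.12 ± 1.64 TPM and *Lmf1* at 4.84 ± 0.440 TPM. Of these, *Angptl4* was above *Lmf1* in 4 of 6 mice. The inhibitor and the maturation factor of lipoprotein lipase were therefore the 2 least abundant transcripts of the list on this scale, near the middle of the 14133 genes (48.3% and 42.5% of genes were below them). *Fabp3*, *Cd36* and *Lpl* were above 99.9%, 99.6% and 99.5% of genes.

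The order depended on which length was used. With the length of the longest principal transcript in place of merged exons, *Lpl* (2107 ± 181 TPM) stood above *Cd36* (1084 ± 73.7 TPM) in 6 of 6 mice, *Fabp4* reached 681 ± 58.4 TPM, and *Lmf1* (27.9 ± 2.39 TPM) was no longer at the bottom. *Fabp3* at 2868 ± 91.1 TPM remained first and *Angptl4* at 5.17 ± 1.39 TPM was last. The merged exons of *Fabp4* spanned 4489 bases against 896 in its principal transcript, and those of *Lmf1* 13589 against 1858.

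**Figure D1:**
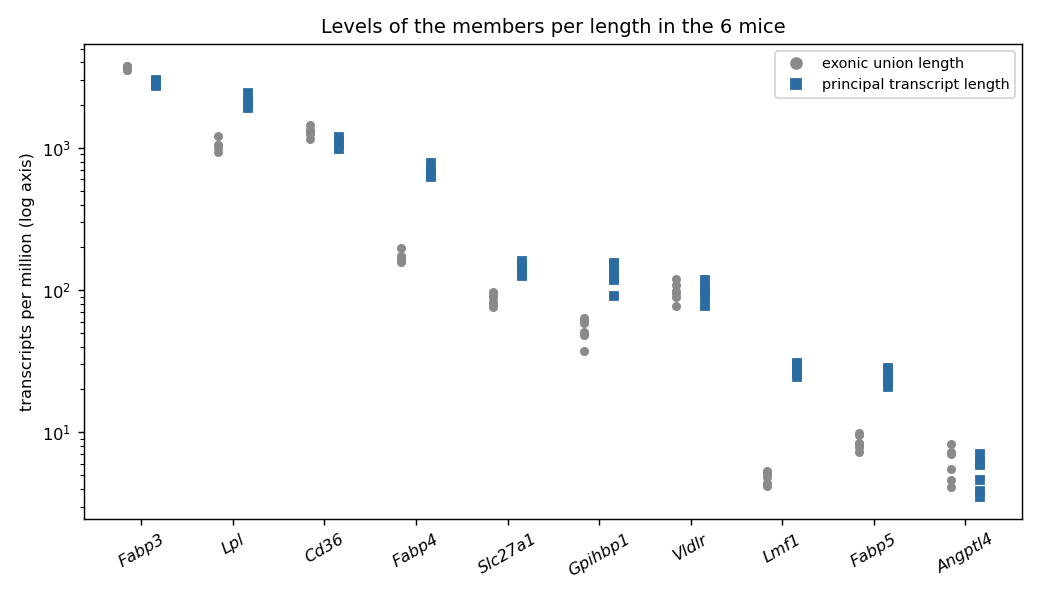
Level of each gene per length in the 6 mice, in TPM on a log axis. Grey circles use the merged exon length and blue squares the principal transcript length. *Fabp3* is highest on both scales, and *Lpl* lies below *Cd36* on the first and above it on the second.

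The second question was whether the 10 genes differed between WD + Tributyrin and WD + Vehicle. Fitted over all 14133 genes with edgeR's quasi-likelihood test, 8 of the 10 were higher and 2 lower with Tributyrin, against 49.6% of all genes higher. The median log2 fold change of the 10 was 0.15, and that of all genes tested was -0.00. *Lpl*, *Fabp4* and *Slc27a1* had an unadjusted p under 0.05, all 3 higher, where 4.25% of all genes had such a p, 1.97% higher and 2.28% lower. None of the 10 passed a false discovery rate (FDR) of 10% after Benjamini-Hochberg adjustment over all genes (adjusted p = 0.999 for each), and 0 of the 14133 genes did (0%), while 600 had an unadjusted p under 0.05. By limma-voom, 605 genes (4.28%) had an unadjusted p under 0.05 and 0 (0%) passed 10%. DESeq2, run without that filter on low counts, gave 460 of 25578 genes (1.8%) under 0.05. It put 11 of the 13179 genes with an adjusted p (0.0835%) past 10%, with none of these 10 among the 11. For *Lpl* and *Fabp4* every Tributyrin mouse was above every vehicle mouse. Among all genes 8.91% had groups apart in this way, 4.26% higher and 4.65% lower with Tributyrin. With 3 mice against 3, an exact permutation test cannot give a p below 0.1.

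**Figure D2:**
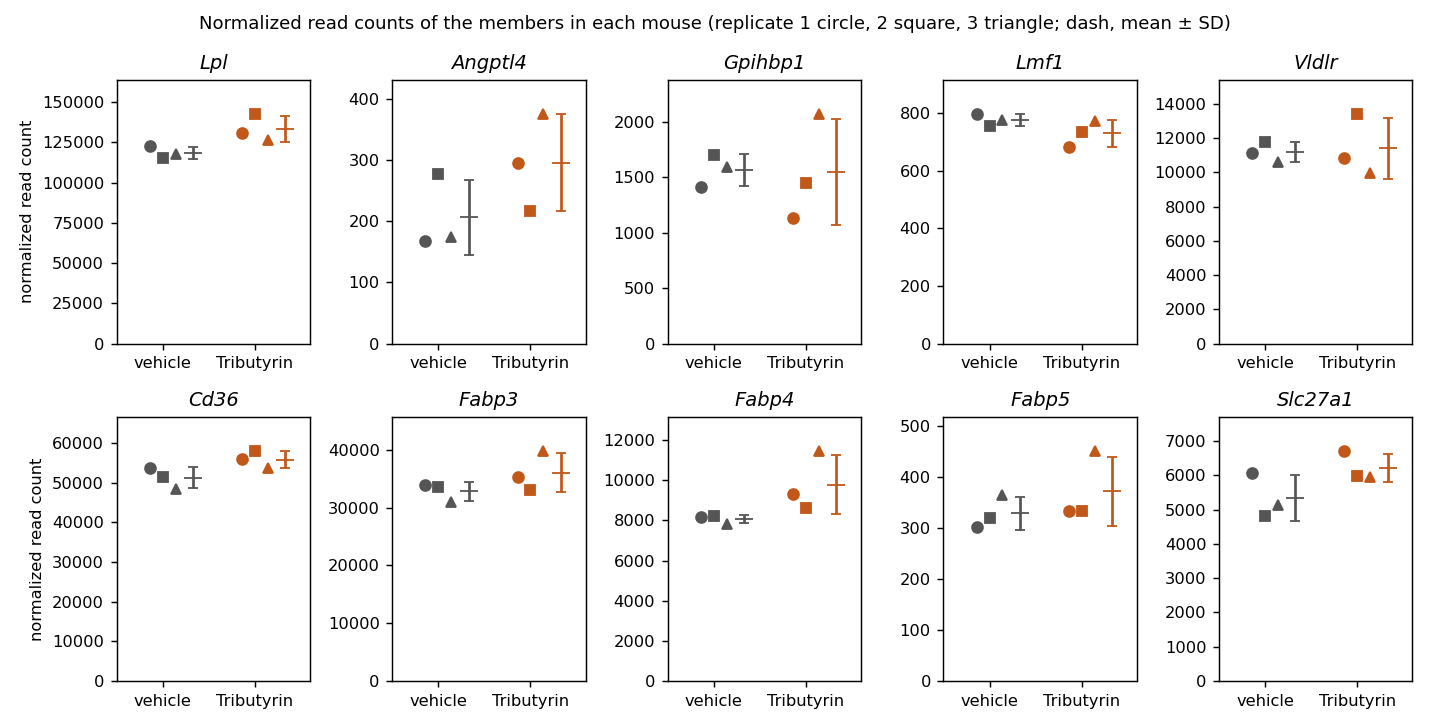
Normalized read counts (counts divided by size factors) of the 10 genes in each mouse, vehicle in grey and Tributyrin in orange, with mean ± SD beside the points and each axis starting at 0. *Lpl* and *Fabp4* are the 2 genes whose groups do not overlap, and the triangle of Tributyrin mouse 3 is the highest point for *Angptl4*, *Gpihbp1* and the 3 *Fabp* genes.

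*Lpl* (ENSMUSG00000015568, GRCm38 chr8:68880491-68907448, plus strand) encodes the lipase itself. Its normalized read counts were 122741, 115411 and 117616 in vehicle mice 1 to 3, and 131066, 142608 and 126814 in Tributyrin mice 1 to 3. Every Tributyrin mouse lay above every vehicle mouse, and the highest was Tributyrin mouse 2. Means were 118589 ± 3761 and 133496 ± 8172 (SD, n = 3 each), a difference of 12.6% (two-sided exact permutation p = 0.1). The edgeR log2 fold change was 0.17 (SE 0.074, 95% interval 0.01 to 0.34, unadjusted p = 0.0425), which ranked 520 of 14133 genes. *Lpl* alone took 0.454% to 0.544% of all counts in a library. Scaled by library size alone its log2 fold change was 0.10, and in CPM, counts scaled by the library total, Tributyrin mouse 3 (4543) was the lowest of the 6. The groups were thus apart in *Lpl* after DESeq2-type scaling and overlapped in CPM.

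*Angptl4* (ENSMUSG00000002289, chr17:33773750-33781830, minus strand) encodes the secreted inhibitor that inactivates lipoprotein lipase, and is induced by fasting and by fatty acids in many tissues. It had the largest log2 fold change and the largest standard error of the 10. Normalized read counts were 168, 278 and 174 with vehicle and 295, 217 and 375 with Tributyrin. Vehicle mouse 2 lay above Tributyrin mouse 2, so the groups overlapped. Means were 206.6 ± 61.5 and 295.7 ± 78.8 (SD, n = 3 each), a difference of 43.1% (exact permutation p = 0.2). The edgeR log2 fold change was 0.50 (SE 0.226, 95% interval -0.01 to 1.00, unadjusted p = 0.0524), and 5.04% of all genes had an absolute log2 fold change at least as large. Its value rested on single mice: 0.78 without vehicle mouse 2 and 0.30 without Tributyrin mouse 3. With no filter on low counts the log2 fold change stayed at 0.50, but its SE was 0.138 in place of 0.226. The adjusted p was then 0.0539 (edgeR, Benjamini-Hochberg over 25581 genes), and over the other alternatives it was between 0.417 and 1.00.

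*Gpihbp1* (ENSMUSG00000022579, chr15:75596628-75599481, plus strand) encodes the endothelial protein that binds lipoprotein lipase and shuttles it to the capillary lumen. Counts were 1417, 1704 and 1593 with vehicle and 1129.6, 1451 and 2072 with Tributyrin. The Tributyrin mice held both the lowest and the highest of the 6 values. Group means of 1571 ± 145 and 1551 ± 479 (SD, n = 3 each) differed by -1.29% (exact permutation p = 1), and the log2 fold change was -0.02 (95% interval -0.41 to 0.37). The direction turned with the mouse left out, from -0.28 without Tributyrin mouse 3 to 0.17 without Tributyrin mouse 1. On the linear scale the interval ran from 0.750-fold to 1.29-fold.

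*Lmf1* (ENSMUSG00000002279, chr17:25579085-25662826, plus strand) encodes the endoplasmic reticulum factor that lipoprotein lipase needs to fold into an active enzyme. Its counts were 796, 754 and 775 with vehicle and 682, 735 and 773 with Tributyrin. Only Tributyrin mouse 3 reached into the vehicle range. In CPM the groups did not overlap, with 29.7 to 30.6 in the vehicle mice and 25.4 to 28 in the Tributyrin mice. Scaling by library size alone lowered most genes with Tributyrin (27.5% of all genes higher, median log2 fold change -0.07). The share of all genes with groups apart in CPM was not counted. The means, 775.3 ± 20.9 and 729.8 ± 45.9 (SD, n = 3 each), differed by -5.87% (exact permutation p = 0.2), with a log2 fold change of -0.09 (95% interval -0.26 to 0.09). *Lmf1* was lower with Tributyrin in the main edgeR fit and in all 17 alternatives, and its unadjusted edgeR p was never under 0.0747 in them.

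*Vldlr* (ENSMUSG00000024924, chr19:27216484-27254231, plus strand) encodes a receptor that binds triglyceride-rich lipoproteins on the endothelium and cardiomyocytes. Counts were 11112, 11769 and 10607 with vehicle and 10808, 13397 and 9981 with Tributyrin. Tributyrin mouse 2 was the highest and Tributyrin mouse 3 the lowest of all 6. Means of 11163 ± 583 and 11395 ± 1782 (SD, n = 3 each) differed by 2.08% (exact permutation p = 0.9). The log2 fold change of 0.03 (95% interval -0.20 to 0.26) changed sign with library size alone (-0.04) and without Tributyrin mouse 2 (-0.10).

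The uptake genes were examined next. *Cd36* (ENSMUSG00000002944, chr5:17781690-17888801, minus strand) encodes fatty acid translocase, expressed by both capillary endothelium and cardiomyocytes. It had 53808, 51565 and 48441 normalized counts with vehicle and 55889, 57899 and 53718 with Tributyrin. Vehicle mouse 1 lay just above Tributyrin mouse 3, and the other vehicle mice lay below all Tributyrin mice. Means of 51271 ± 2695 and 55836 ± 2091 (SD, n = 3 each) differed by 8.90% (exact permutation p = 0.2). The log2 fold change was 0.12 (SE 0.072, 95% interval -0.03 to 0.28), and it was positive in all 17 alternatives.

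*Slc27a1* (ENSMUSG00000031808, chr8:71568882-71587302, plus strand) encodes FATP1, which couples fatty acid entry to acyl-CoA formation. Counts were 6082, 4804 and 5138 with vehicle and 6697, 5989 and 5964 with Tributyrin. Vehicle mouse 1 exceeded Tributyrin mice 2 and 3, so the groups overlapped. The means were 5341 ± 662 and 6217 ± 416 (SD, n = 3 each), a difference of 16.4% (exact permutation p = 0.3). The edgeR log2 fold change was 0.22 (SE 0.095, 95% interval 0.01 to 0.43, unadjusted p = 0.0425). It was 0.33 without vehicle mouse 1 and 0.15 without vehicle mouse 2, and its unadjusted p was under 0.05 in 12 of 17 alternatives.

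*Fabp4* (ENSMUSG00000062515, chr3:10204088-10208576, minus strand) encodes the adipocyte-type fatty acid binding protein, which in heart is mainly made by capillary endothelium. It had 8178, 8206 and 7838 normalized counts with vehicle and 9293, 8595 and 11433 with Tributyrin. All Tributyrin mice were above all vehicle mice, and Tributyrin mouse 3 was far above the other two. Means of 8074 ± 205 and 9774 ± 1479 (SD, n = 3 each) differed by 21.1% (exact permutation p = 0.1). Its edgeR log2 fold change of 0.28 (SE 0.098, 95% interval 0.06 to 0.49, unadjusted p = 0.0182) had the smallest p of the 10 and ranked 202 of 14133. Without Tributyrin mouse 3 it was 0.15. The groups stayed apart in CPM, for which the share of all genes apart was not counted. The unadjusted p was under 0.05 in 15 of 17 alternatives.

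The heart-type gene *Fabp3* (ENSMUSG00000028773, chr4:130308595-130315463, plus strand) carries most of the cytosolic fatty acid binding of cardiomyocytes. Counts were 33868, 33575 and 30910.1 with vehicle and 35374, 33092 and 39705 with Tributyrin. Tributyrin mouse 3 was the highest, and Tributyrin mouse 2 lay within the vehicle range. The means, 32785 ± 1630 and 36057 ± 3359 (SD, n = 3 each), differed by 9.98% (exact permutation p = 0.3), and the log2 fold change was 0.14 (95% interval -0.04 to 0.32). Without Tributyrin mouse 3 it was 0.07. Of the 774 stretches of 50 bases in its exons, 29.2% also occur in the pseudogene *Fabp3-ps1*, which had 79 to 144 counts, and *Zcchc17* overlaps it on the opposite strand with 452 to 762 counts, and some of its reads could be split or lost in counting.

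*Fabp5* (ENSMUSG00000027533, chr3:10012548-10016607, plus strand), the epidermal-type binding protein that is also endothelial in heart, was the second-lowest of the 10 in reads. It had 301, 319 and 364 normalized counts with vehicle and 333, 333 and 449.7 with Tributyrin. Both Tributyrin mice 1 and 2 lay within the vehicle range and Tributyrin mouse 3 above it. Means of 328.3 ± 32.2 and 371.7 ± 67.5 (SD, n = 3 each) differed by 13.2% (exact permutation p = 0.4). The log2 fold change of 0.18 (95% interval -0.13 to 0.48) was 0.03 without Tributyrin mouse 3.

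**Figure D3:**
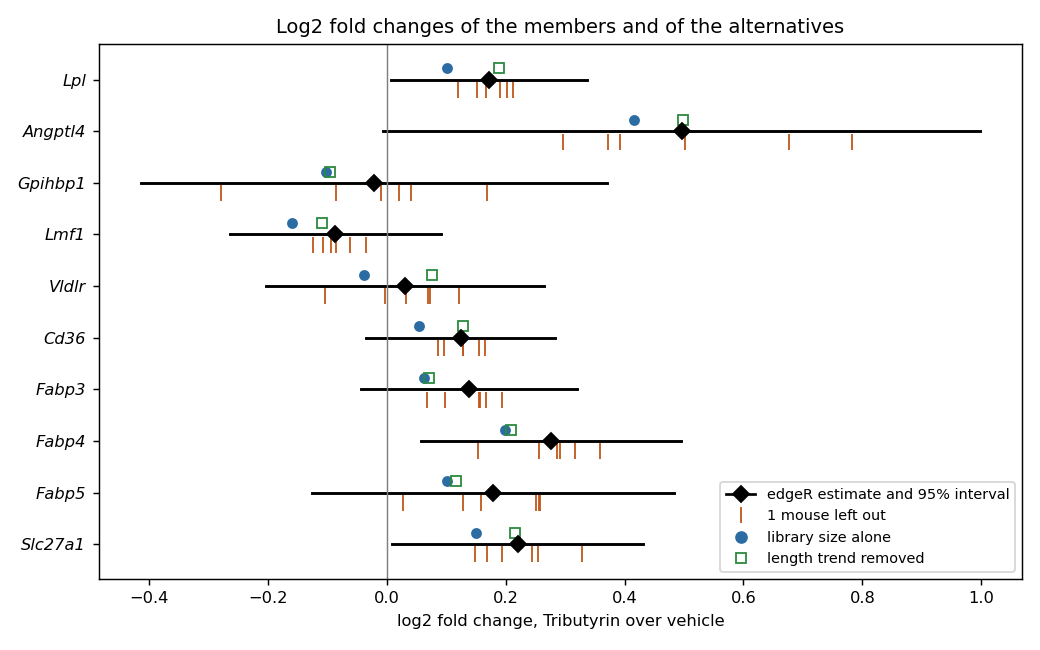
Log2 fold change of each gene, Tributyrin over vehicle, with its 95% interval (black diamond and line, edgeR), with 1 mouse left out at a time (orange ticks), with library size alone (blue) and after removal of a length trend (green). Intervals of *Lpl*, *Fabp4* and *Slc27a1* lie above 0, and the estimates with library size alone lie to the left of the edgeR estimates for all 10 genes.

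Taken as a sum, the 10 genes had 223457 to 238472 normalized counts with vehicle and 251286 to 264315 with Tributyrin, and the groups did not overlap. *Lpl* was its largest part. As a share of all deposited counts they took 0.883% to 0.907% with vehicle and 0.900% to 1.01% with Tributyrin, and these ranges overlapped. Scaling by library size alone moved the median of all genes to -0.07 and left 27.5% of them higher, and under it 7 of the 10 were higher and 1, *Fabp4*, had an unadjusted p under 0.05. Of all genes 5.65% had such a p under this scaling, and 0.708% had it and were higher.

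The third question was whether the 10 genes moved together from mouse to mouse. Over the 6 mice, which share group and library with both genes of a pair, *Fabp3* and *Fabp4* had the highest Pearson correlation of the 45 pairs (r = 0.95, log2 normalized counts), followed by *Lpl* and *Cd36* (r = 0.89). *Vldlr* and *Fabp5* had the lowest (r = -0.58). *Fabp3* and *Fabp4* each had r = 0.84 with the mitochondrial share of counts, whose ranges in the groups are given above. *Slc27a1* had r = 0.84 with the same share and -0.93 with the mean of 6 fibroblast markers. *Vldlr* had r = 0.93 with the mean of 9 endothelial markers. With the same mean *Cd36* had r = 0.62, while *Gpihbp1*, *Fabp4* and *Fabp5*, described above as endothelial in heart, had -0.26, -0.21 and -0.39. Apart from these 4, the values given for the mitochondrial share, the marker means and the scaling factors were the largest in size among those of the 10 genes. *Fabp3* and *Fabp4* had r = -0.905 and -0.922 with the factors by which edgeR scales libraries (TMM). Those factors were 1.001 to 1.038 in the vehicle mice and 0.945 to 0.9998 in the Tributyrin mice. The normalized counts had themselves been divided by DESeq2 size factors, which make a similar adjustment. Correlations with the TMM factors are therefore not independent of the scaling. These are descriptions over 6 mice, and their part in the group differences was not tested.

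Transcript length was examined in the same way. For 14129 genes, the deviation of a library from the mean of all 6 was related to log2 length of the principal transcript with r between 0.04 and 0.12 in the vehicle mice, and with r of -0.06, 0.16 and -0.27 in Tributyrin mice 1, 2 and 3. In Tributyrin mouse 3 the 1024 genes under 1000 bases had a median log2 deviation of 0.16 and the 2767 genes over 5000 bases one of -0.12. *Fabp3*, *Fabp4*, *Fabp5* and *Gpihbp1* have principal transcripts of 823 to 987 bases, and all 4 were highest in Tributyrin mouse 3. *Vldlr*, at 7971 bases the longest, was lowest there. With a trend on principal transcript length removed from each library, the log2 fold change of *Fabp3* was 0.07 and that of *Fabp4* 0.21 (unadjusted p = 0.00865 in edgeR), while *Lpl* had 0.19 (unadjusted p = 0.00635 in edgeR). *Cd36* at 0.13 (unadjusted p = 0.0491 in edgeR) and *Slc27a1* at 0.22 (unadjusted p = 0.0387 in edgeR) made 4 of the 10 under 0.05, against 4.80% of all genes in that fit. With the trend taken on merged exon length instead, 3 of the 10 were under 0.05, against 4.68% of all genes. There *Cd36* was at 0.12 (unadjusted p = 0.0930 in edgeR), *Fabp4* at 0.28 (unadjusted p = 0.0140 in edgeR), and *Fabp3* at 0.06. Both corrections were chosen after the data were seen.

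**Figure D4:**
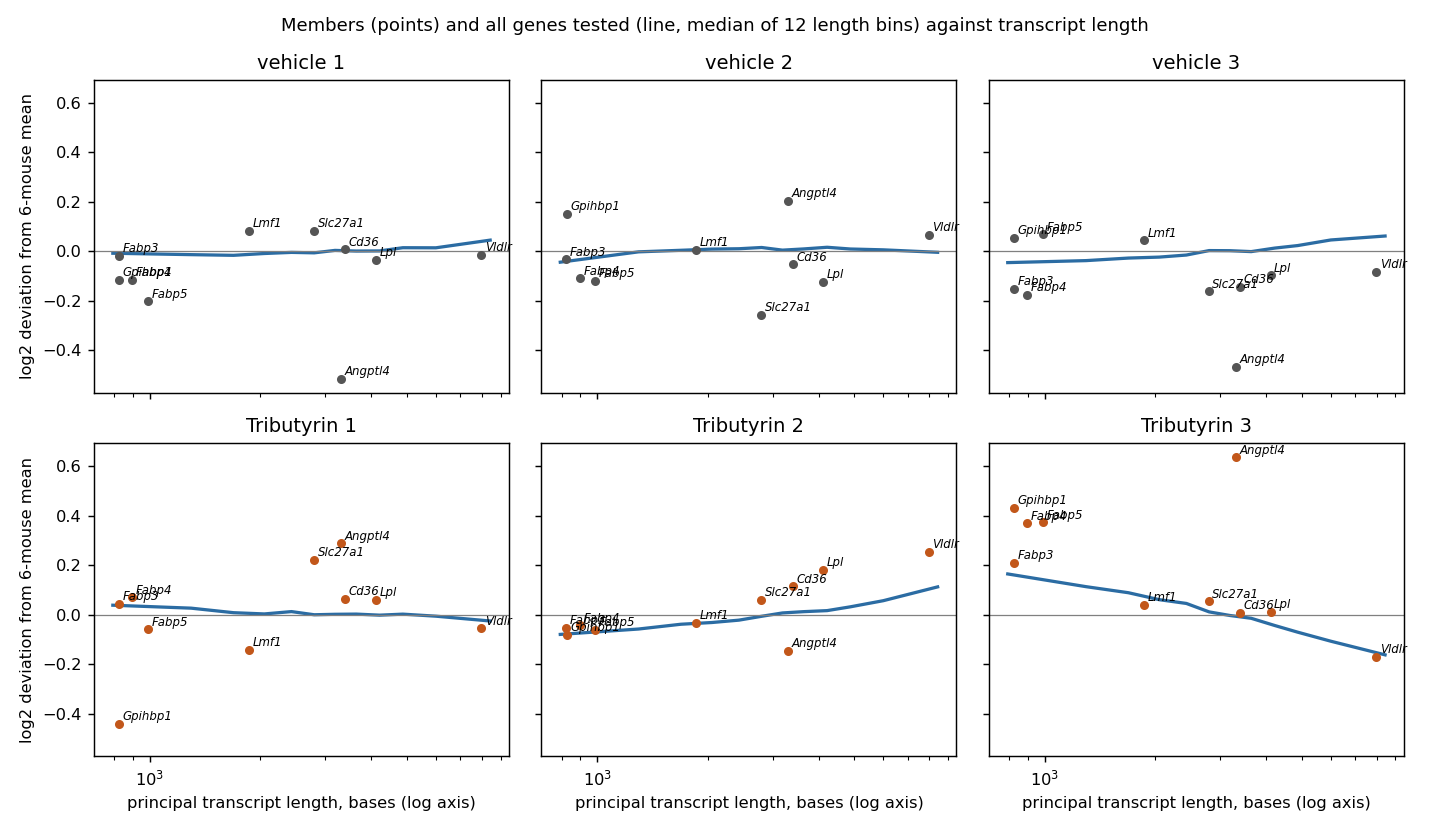
Log2 deviation of each gene from its mean over the 6 mice against principal transcript length (log axis), 1 panel per mouse, with the median of all genes in 12 length bins as a line. In Tributyrin mouse 3 the line falls from 0.16 to -0.16 with length, and *Gpihbp1* and the *Fabp* genes lie above its left end.

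Ratios within a library do not depend on how libraries are scaled, and 11 were compared. The log2 ratio of *Lmf1* to *Lpl* per kilobase was lower with Tributyrin by a difference of -0.26 (SE 0.079), from -7.63 ± 0.0115 to -7.89 ± 0.137 (SD, n = 3 each). All 3 Tributyrin mice were below all vehicle mice (two-sided exact permutation p = 0.1, the smallest possible, and 0.367 after Benjamini-Hochberg adjustment over the 11 ratios). *Fabp4* over *Fabp3*, genes of nearly equal transcript length, differed by 0.13 (SE 0.052), higher in 3 of 3 Tributyrin mice than in any vehicle mouse (exact permutation p = 0.1). The log2 ratio of *Cd36* to the mean of the endothelial markers differed by 0.10 (SE 0.044), also with no overlap (exact permutation p = 0.1). *Angptl4* over *Lpl*, inhibitor over enzyme, differed by 0.35 (SE 0.376) with overlapping groups (exact permutation p = 0.4), and *Gpihbp1* over *Lpl* by -0.23 (SE 0.295, exact permutation p = 0.5). The other 6 ratios overlapped between groups.

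The genes most like *Lpl* and *Angptl4* over the 6 mice were sought among 10261 genes with a mean of at least 100 normalized counts. For *Lpl* they were *Exd2* (r = 0.99), *Gtpbp1* (r = 0.98), *Acot1*, *Fbp2* and *Hadha* (r = 0.97, 0.96 and 0.96), and 12 genes exceeded 0.95. *Acot1* and *Hadha* encode enzymes of acyl-CoA hydrolysis and of mitochondrial fatty acid oxidation. *Angptl4* was most like *Camk1* (r = 0.996), *Urod* and *Arf1* (r = 0.98 each), *Gtf3a* and *Slc25a39* (r = 0.97 each), with 32 genes over 0.95. With 6 points chosen from so many genes, such values are a description only.

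Other genes of the pathway were read from 10 lists, none of which had a gene past an FDR of 10%. Of the cofactors and inhibitors of lipoprotein lipase 2 of 7 passed the filter. *Apoe* had a log2 fold change of 0.05, and the activator *Apoc2* had 0 reads. Of the 10 genes for folding, assembly and cleavage of the enzyme 6 were higher and 4 lower, from *Pcsk5* at -0.24 to *Canx* at 0.06, none at an unadjusted p under 0.05. All 4 tested lipases of other substrates or compartments were higher. *Mgll*, monoacylglycerol lipase, had a log2 fold change of 0.24 (unadjusted p = 0.0207 in edgeR) and *Lipe*, hormone-sensitive lipase, 0.21 (unadjusted p = 0.0344 in edgeR), and neither overlapped between groups, while *Pnpla2* was at 0.03. Of 9 lipoprotein receptors and heparan sulfate carriers 2 were higher and 7 lower (median -0.08, from *Lrp8* at -0.75, with under 40 normalized counts in each mouse, to *Sdc4* at 0.19).

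Among the other fatty acid transport proteins, 2 of 7 tested genes were higher and 5 lower, with a median of -0.00. They ran from *Slc27a3* at -0.43 to *Got2*, whose protein also binds fatty acids at the plasma membrane, at 0.10. Of the other fatty acid and acyl-CoA binding proteins 2 of 8 were tested, *Dbi* at 0.12 and *Acbd5* at 0.03, and the 6 untested *Fabp* genes had at most 13 reads in a library. In a list of 10 genes by which endothelium controls fatty acid transport, 4 were higher and 6 lower (median -0.01). *Rbpj* at 0.33 and *Aplnr* at -0.39 were its extremes, and the ligand gene *Apln* was lower (-0.33, unadjusted p = 0.0353 in edgeR).

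PPAR target genes of the heart had the same median as the 10 genes, 0.15, with 11 of 13 higher. *Decr1*, an enzyme for oxidation of unsaturated fatty acids, had 13426, 13788 and 12877 normalized counts with vehicle and 15354, 14637 and 15345 with Tributyrin. All 3 Tributyrin mice were above all vehicle mice (log2 fold change 0.18, unadjusted p = 0.0207 in edgeR). *Acot1* had a log2 fold change of 0.46 (unadjusted p = 0.0129 in edgeR) with overlapping groups. *Cpt1b* was the lowest at -0.16 (SE 0.135). Its means were 143 normalized counts with vehicle and 128 with Tributyrin, against 1582 and 1519 for *Cpt1a*. The cause of its low counts was not tested. In the glucocorticoid list 4 of 8 genes were higher (median -0.01, from *Zbtb16* at -0.10 to *Fkbp5* at 0.16), and *Fkbp5* ran from 572 to 2721 normalized counts within the Tributyrin group. The hypoxia list had 4 of 7 higher (median 0.01, with *Vegfa* lowest at -0.06), and *Egln3* was its 1 gene under 0.05 (0.47, unadjusted p = 0.00164 in edgeR).

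**Figure D5:**
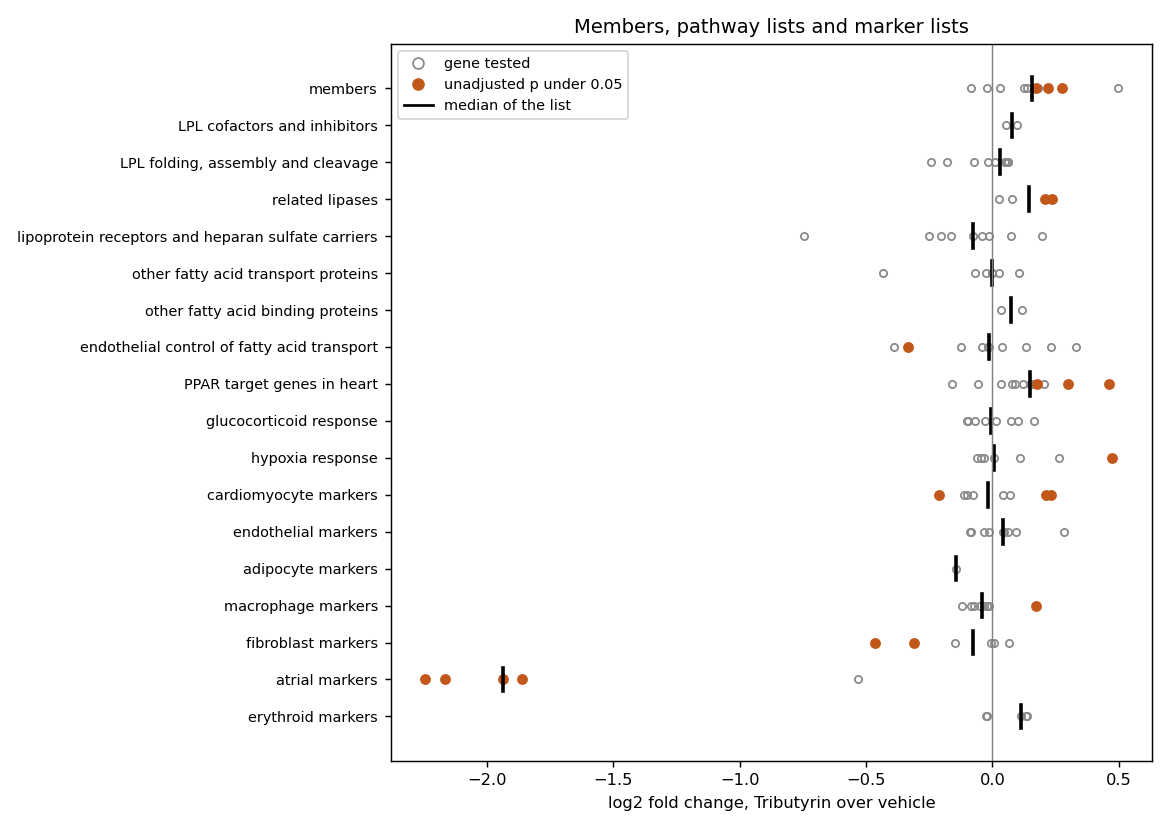
Log2 fold change of every tested gene of the 10 genes (members), of 10 pathway lists and of 7 marker lists, with the median of each list as a bar. Filled points have an unadjusted p under 0.05. Medians of the 10 genes and of PPAR targets lie at 0.15, and the atrial markers have a median of -1.94.

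Markers of cells that could carry these transcripts were set beside them. Of 9 endothelial markers 5 were higher and 4 lower (median 0.04), and their summed counts ranged from 18190 to 18632 with vehicle and from 17682 to 19171 with Tributyrin, so the sums of the groups overlapped. *Cdh5*, the most abundant, was at -0.03 and *Cldn5* at 0.28. *Fabp4* over the endothelial mean differed by 0.24 (SE 0.146, exact permutation p = 0.2). *Fabp4* and *Lpl* are also adipocyte genes, and of 8 adipocyte markers 1, *Cidea*, which cardiomyocytes also express, was tested (-0.15). *Adipoq* had at most 16 reads and *Plin1* at most 39 in a library, and both were highest, per normalized count, in Tributyrin mouse 2. Of 8 cardiomyocyte markers 4 were higher and 4 lower, with *Tnnt2* at 0.23 and *Tnni3* at 0.21 higher and *Actc1* at -0.21 lower, each at an unadjusted p under 0.05. Of 6 fibroblast markers (median -0.08, *Dcn* the most abundant at 0.01) 2 were lower at an unadjusted p under 0.05. *Lum* was at -0.31 with groups apart (unadjusted p = 0.00257 in edgeR) and *Col1a1* at -0.46 (unadjusted p = 0.0224 in edgeR). Of 8 macrophage markers 7 were lower and 1 higher (median -0.04), the higher one being *Lyz2* at 0.17 (unadjusted p = 0.0392 in edgeR). Erythroid markers, 3 of 5 higher (median 0.11, *Hbb-bs* at 0.13), completed the check. *Sln*, at -2.24, moved most among the atrial markers, of which *Myl4* was the most abundant. The part of any of these cell types in the values of the 10 genes was not tested.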

How the data were processed

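Heart ventricle mRNA of 6 mice (3 per group, grouped by the treatment in the labels) was sequenced as stranded, single-end libraries. The authors trimmed adapters (cutadapt 1.13), removed reads aligning to rRNA, aligned with STAR to mm10 and counted with HTSeq 0.6.1p1, per the submitters' processing notes and methods, which also name DESeq2 1.14.1. They deposited whole-number read counts per gene, without normalization. Which annotation release they counted on, and whether by strand, is not given in the sources used here. Submitters' comparisons were not used.

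Gene names, positions and lengths came from GENCODE M21 (GRCm38), in which 54165 of 54232 identifiers matched. Tributyrin was compared with vehicle by edgeR 4.0.16 (R 4.3.3) with TMM scaling, the filterByExpr filter (minimum count 10, minimum total 15), the quasi-likelihood test and Benjamini-Hochberg adjustment over all genes tested. Thresholds were an FDR of 10% and, as in the methods, 5%. Normalized counts are counts divided by size factors of DESeq2 1.42.0. TPM used merged exons or the longest APPRIS principal transcript. Single values were compared by two-sided exact permutation tests. Alternatives were other scalings, other filters, DESeq2, limma-voom 3.58.1, a robust prior, a replicate block, leaving out each mouse, and a lowess trend on either length removed through the offset. Python 3.11.15, with matplotlib 3.10.9, numpy 2.4.6 and pandas 2.3.3, handled the rest. The edgeR, DESeq2 and limma-voom fits and the removal of a trend on principal transcript length were tested on simulated data, and the other steps were not. The fold changes simulated for the fits were larger than those of the 10 genes. The simulation therefore cannot tell whether differences as small as those reported here would be detected.

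The 10 genes, the lists and the tests were chosen with earlier results of these data known. Named genes are the 10, of each pathway list those with an unadjusted p under 0.05 and its 2 extremes, of each marker list the most abundant and the most changed gene, and the 5 genes most like *Lpl* and *Angptl4*. *Myl2*, *Pnpla2*, *Apoc2*, *Adipoq*, *Plin1*, *Tnni3*, *Tnnt2*, *Actc1* and *Lum* were added after their values were seen. Some items that this rule names are not reported here. At totals of 20369746 to 32734485 counts, the largest counting error of a gene in a library was between 0.325% (*Lpl*) and 8.45% (*Angptl4*). P-values set a difference between groups against the variation between these mice, which edgeR estimates with the help of all genes. The chi-square per degree of freedom between libraries was 6.67 or more for every pair, so none was deposited in duplicate.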

Additional observations from a re-analysis of the deposited data

How the results depend on the processing

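The numbers of genes past a threshold depended on the setting. At an FDR of 10% the count was 0 in the main edgeR fit of this report and 167 (64 higher) with no filter on low counts. It was 11 with DESeq2, 2 with a replicate block and 0 to 3 when 1 mouse was left out. At 5% it was 0 in the main edgeR fit, 140 with no filter, 5 with DESeq2 and 0 to 3 when 1 mouse was left out. Among the 10 genes, *Angptl4* with no filter was the single call at 10%, with an unchanged log2 fold change and a smaller SE (0.138 against 0.226). The count of the 10 with an unadjusted p under 0.05 was 3, with 1 for library size alone and 0 (without vehicle mouse 3) to 4 (without Tributyrin mouse 2) when 1 mouse was left out. The share of all genes with such a p also moved. It was 4.25% in the main edgeR fit, 5.65% with library size alone, 2.68% without vehicle mouse 3 and 9.56% without Tributyrin mouse 2. *Vldlr* turned to -0.0378 (log2) and -296 normalized counts with library size alone, and to -0.10 and -0.00304 (-769 and -45.6 counts) without Tributyrin mouse 2 and vehicle mouse 3, within a range of -0.10 to 0.12 (-769 to 939 counts) when 1 mouse was left out. *Gpihbp1* turned to 0.04, 0.17 and 0.02 (46.0, 190.3 and 29.6 normalized counts) without vehicle mouse 2, Tributyrin mouse 1 or Tributyrin mouse 2, within a range of -0.28 to 0.17 (-281 to 190 counts). The other 8 of the 10 genes kept their direction in all 17 alternatives. Library size alone turned the medians of the lists for folding and cleavage to -0.04, hypoxia to -0.07 and endothelial markers to -0.03. It moved those of related lipases to 0.07, other fatty acid transport proteins to -0.07, other binding proteins to 0.00214 and cardiomyocyte markers to -0.09. Without Tributyrin mouse 1 the medians were -0.38 for erythroid markers, 0.16 for hypoxia, 0.08 for endothelial control, 0.07 for cardiomyocyte markers and 0.00045 for endothelial markers, and without Tributyrin mouse 2 they were -0.09 for cardiomyocyte and -0.01 for endothelial markers. The cause of these shifts was not tested.

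Whether the replicate numbers stand for pairs of mice is not given in the labels and was not tested. Deviations of same-numbered mice correlated by 0.20, 0.03 and 0.02. With the replicate block 2 of the 10 genes, *Fabp4* and *Slc27a1*, had an unadjusted p under 0.05 in edgeR. Among all genes 731 (5.17%) had such a p with the block, against 600 (4.25%) without it. Depth limited *Angptl4*, *Fabp5* and *Lmf1* most, with counting errors of up to 8.45%, 5.87% and 4.0% of a library's value. For *Lmf1* this is above the spread of the vehicle mice (coefficient of variation 2.69%).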
